A study of Mus musculus with 6 samples.

Results

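Clustered histone genes are the H1, H2A, H2B, H3 and H4 genes whose older symbols begin with Hist1h, Hist2h, Hist3h or Hist4h. They were found by those symbols, leaving out names that contain -ps (pseudogenes), and the rule gave 69 of the 55401 genes in the deposited table. The table carries newer symbols for most of them (H1f3 for Hist1h1d), so the older symbols were read from GENCODE M21 by gene ID; by the table's own symbols the rule found 9 genes. A count above 0 in at least 3 libraries was reached by 59 of the 69 genes, 7 of the 9 with a Hist symbol among them. The 59 comprised 6 H1, 12 H2A, 17 H2B, 11 H3 and 13 H4 genes. Of the other 10, 5 were at 0 in every library, and none had more than 4 estimated counts in a knockdown library or 10 in a WT library.

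The study sequenced RNA from mouse bone marrow-derived macrophages, which were induced by M-CSF, the growth factor that turns marrow progenitors into macrophages. There were 3 libraries labelled Lamtor5 knockdown and 3 labelled WT, and the M-CSF treatment was common to both groups. Lamtor5 (HBXIP) belongs to Ragulator, which holds the Rag GTPases and mTORC1 at the lysosome. The series names the mutant by LysM, the promoter of a myeloid lysozyme gene that is commonly used to drive Cre recombinase in macrophages and granulocytes. Neither the age of the mice nor the source of each replicate, a separate animal or a separate culture, is given in the sources used here. The p-values therefore describe the spread among these 6 libraries, and part or all of that spread may be technical.

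Histones are the proteins that package DNA: pairs of H2A, H2B, H3 and H4 form the nucleosome core, and H1 binds the linker DNA between cores. The clustered genes are made in bulk while DNA is copied in S phase. Their mRNAs are unusual in ending in a short stem-loop, bound by the protein SLBP, in place of a poly(A) tail, and libraries made from polyadenylated RNA hold little of them; some members are known to be made as polyadenylated mRNA as well. The labels name an mRNA library kit and total RNA, and do not say whether poly(A) RNA was selected.

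The stem-loop is shown because it sets these mRNAs apart from nearly all others. The letters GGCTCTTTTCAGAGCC were found in the transcripts of 29 of 55450 genes in GENCODE M21 (0.052%), and 26 of the 29 were clustered histone genes. A looser form, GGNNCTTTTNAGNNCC with N for any base, was found in 44 of the 69 clustered histone genes and in 0.161% of all genes. Below are the sites of 7 of the 8 genes that fell in the knockdown, then of 2 abundant genes that did not pass the test, and of the most abundant H4 gene; H2bc21, which also fell, had no such letters in its transcript. The letters are the mRNA sense strand in GRCm38 from the GENCODE M21 transcripts, written as DNA, with the stem-loop in capitals.
H1f3 (Hist1h1d), chr13:23555780-23555809, plus strand: ctcaaacGGCTCTTTTCAGAGCCacccaca
H2ac6 (Hist1h2ac), chr13:23683470-23683499, minus strand: acccaaaGGCTCTTTTCAGAGCCcccactt
H2bc8 (Hist1h2bg), chr13:23571836-23571865, plus strand: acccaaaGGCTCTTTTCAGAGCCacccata
H2bc9 (Hist1h2bh), chr13:23542921-23542950, minus strand: acccaaaGGCTCTTTTCAGAGCCactcaag
H3c4 (Hist1h3d), chr13:23576237-23576266, plus strand: ccccaaaGGCTCTTTTCAGAGCCacccccg
H3c14 (Hist2h3c1), chr3:96247320-96247349, plus strand: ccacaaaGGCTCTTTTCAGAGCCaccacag
Hist1h4n, chr13:21831791-21831820, minus strand: aactaaaGGCCCTTTTCAGGGCCatccaat
H1f2 (Hist1h1c), chr13:23739505-23739534, plus strand: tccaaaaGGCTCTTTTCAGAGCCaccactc
H2aw (Hist3h2a), chr11:58955165-58955194, plus strand: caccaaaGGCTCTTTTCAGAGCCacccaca
H4c9 (Hist1h4i), chr13:22040959-22040988, minus strand: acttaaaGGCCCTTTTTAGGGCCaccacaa

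The promoters of the members also share letters that most promoters lack. RefSeq promoters (GRCm38.p6, 250 bases before the start to 50 after it) were matched for 54 of the 69 genes and searched on both strands for CCAAT, for TATAAA and for the octamer ATTTGCAT, each with its reverse complement, and no hit of one motif overlapped a hit of another. CCAAT was in 47 of 54 member promoters (87.04%), against 37.41% of all 32851 promoters. It was in every matched H1, H2A, H2B and H3 promoter, and in 3 of 10 H4 promoters. TATAAA was in 31 of 54 (57.41%), against 13.62% of all promoters. The octamer was in 7 of 15 H2A and 6 of 13 H2B promoters and in no matched H1, H3 or H4 promoter, against 1.74% of all promoters. The windows of H2A and H2B genes that lie back to back, such as H2ac8 and H2bc8, can overlap. The same letters then count for both genes, so these promoters are not all separate. The promoters of 3 genes that fell are printed with these letters in capitals: H2bc8 and H2ac6 hold all 3 motifs, and H1f3 holds CCAAT and TATAAA only. The H2ac6 window is also the stretch between H2ac6 and its divergent neighbour H2bc4.
H2bc8 promoter, chr13:23571150-23571449, plus strand: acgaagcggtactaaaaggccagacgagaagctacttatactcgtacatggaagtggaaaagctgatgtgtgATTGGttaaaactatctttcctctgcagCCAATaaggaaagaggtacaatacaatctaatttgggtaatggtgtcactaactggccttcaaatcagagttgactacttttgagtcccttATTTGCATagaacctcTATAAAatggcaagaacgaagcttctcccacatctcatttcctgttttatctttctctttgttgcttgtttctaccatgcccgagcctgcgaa
H2ac6 promoter, chr13:23683910-23684209, minus strand: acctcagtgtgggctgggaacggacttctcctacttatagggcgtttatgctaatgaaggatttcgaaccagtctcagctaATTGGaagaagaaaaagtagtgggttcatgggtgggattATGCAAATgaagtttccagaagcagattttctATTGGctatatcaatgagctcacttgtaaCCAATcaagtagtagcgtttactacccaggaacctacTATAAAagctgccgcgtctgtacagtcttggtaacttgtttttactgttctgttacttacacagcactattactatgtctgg
H1f3 promoter, chr13:23554782-23555081, plus strand: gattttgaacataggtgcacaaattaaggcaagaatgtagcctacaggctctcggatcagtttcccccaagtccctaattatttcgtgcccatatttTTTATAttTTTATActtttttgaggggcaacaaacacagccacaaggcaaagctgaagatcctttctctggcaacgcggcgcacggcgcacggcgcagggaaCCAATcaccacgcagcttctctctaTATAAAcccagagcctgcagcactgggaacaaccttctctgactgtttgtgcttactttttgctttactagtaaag

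Each library had 26.0 to 28.0 M read pairs (M, mega), and the deposited estimated counts summed to 75.8 to 83.2 M. Clustered histone genes held 0.0298, 0.0264 and 0.0264% of these counts in knockdown replicates 1 to 3 and 0.0403, 0.0295 and 0.0279% in WT replicates 1 to 3. Lamtor5 itself stood at 25.8 ± 1.21 FPKM (deposited fragments per kilobase of transcript and M reads) in knockdown and 55.5 ± 0.924 FPKM in WT libraries (mean ± SD, n = 3 each), a log2 fold change of -1.06 ± 0.08 (SE; edgeR adjusted p = 0.00963, and 0.0616 without WT replicate 2). The macrophage markers Cd68, Csf1r and Adgre1 were high in both groups. Of 7 such markers 4 fell, against 6.46% of all genes tested, and 1 rose, against 4.87%. Csf1r, Adgre1, Itgam and Fcgr1 fell, to 42.9, 51.0, 52.7 and 22.3% of the WT mean FPKM. Cd68 rose, from a mean of 946 FPKM in WT to 1415 FPKM in knockdown libraries. The 7 markers summed to 1630 to 1850 FPKM in knockdown and 1570 to 1770 FPKM in WT libraries, and most of each sum was Cd68. Markers of other cells were low. The 6 granulocyte progenitor markers summed to 13.9 to 22.7 FPKM in knockdown and 8.06 to 10.9 FPKM in WT libraries (1 rose), the 6 mast cell and basophil markers to 6.2 to 14.9 FPKM in knockdown and 2.02 to 4.22 FPKM in WT libraries (2 rose), and the 7 erythroid markers to 1.93 to 15.2 FPKM in knockdown and 0.814 to 1.18 FPKM in WT libraries (1 rose). B cell markers (5 genes) summed to 1.1 to 5.46 FPKM in knockdown and 5.69 to 8.19 FPKM in WT libraries, and 5 fibroblast markers to 0.689 to 5.22 FPKM in knockdown and 1.67 to 6.0 FPKM in WT libraries; none of either list passed. Of 5 T cell markers Cd3g was at 0 throughout, and Cd3d, Cd3e and Cd8a had at most 8 estimated counts in any library. The sums were 0.606 to 0.701 FPKM in knockdown and 0.696 to 0.947 FPKM in WT libraries. Nearly all of this was Lck, with a mean of 0.645 FPKM in knockdown and 0.807 FPKM in WT libraries. The part of other cells in the histone results was not tested. In bulk RNA, fewer cells of a kind cannot be told apart from less RNA per cell.

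Most clustered histone genes lay lower in the knockdown, while the 3 most abundant over all 6 libraries (H1f2, H2bc4 and H2aw) had log2 fold changes between -0.16 and 0.21 and did not pass the test. The fit is edgeR's quasi-likelihood test on the estimated counts, with Benjamini-Hochberg adjustment over all 18164 genes tested and a threshold of 0.05. Of the 59 genes, 42 passed the count filter and were tested; 8 fell, which is 19.0% against 6.46% of all genes tested. No member rose, against 4.87% of all genes tested; none did by DESeq2, against 7.81% of genes, or at an unadjusted p under 0.05 in edgeR. The log2 fold change was below 0 for 39 of the 42, with a median of -1.39, against 48.5% and a median of 0.02 for all genes tested. The count filter kept 18 of the 42 through the WT libraries alone, so these figures lean towards genes that are high in WT. Fitted with no count filter, 54 of all 59 were below 0, with a median of -1.35 (the same with the 2 genes that are 0 in every knockdown library set at a floor of 3 counts over the group), against 47.4% of 22240 genes and a median of 0.03; 3 of the 59 then fell, against 3.72% of genes, and none rose, against 2.86%. The knockdown and WT libraries did not overlap for 30 of 59 members, all lower in the knockdown. Among all genes above 0 in at least 3 libraries, 18.3% were lower without overlap and 14.7% higher. The 2 members at 0 in every knockdown library, H1f6 and H2ac10, met the rule of 3 libraries through the WT libraries alone. Their place among the 54 and the 30 was therefore fixed in advance.

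The calls rest on few libraries. The 8 became 1, 4 or 3 when knockdown replicate 1, 2 or 3 was left out, and 5, 0 or 2 without WT replicate 1, 2 or 3. Without WT replicate 2 no gene in the whole table passed, although 4065 genes, 14 members among them, had an unadjusted p under 0.05; the 14 members were all lower in the knockdown. DESeq2 called 15 of 55 members lower, against 9.73% of genes. Of the 14 other settings, H2bc21 kept its call in 13, H2bc8 in 12 and H1f3 in 10; the other 5 kept theirs in 3 to 6 of the 11 to 14 settings that could test them.

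**Figure D1:**
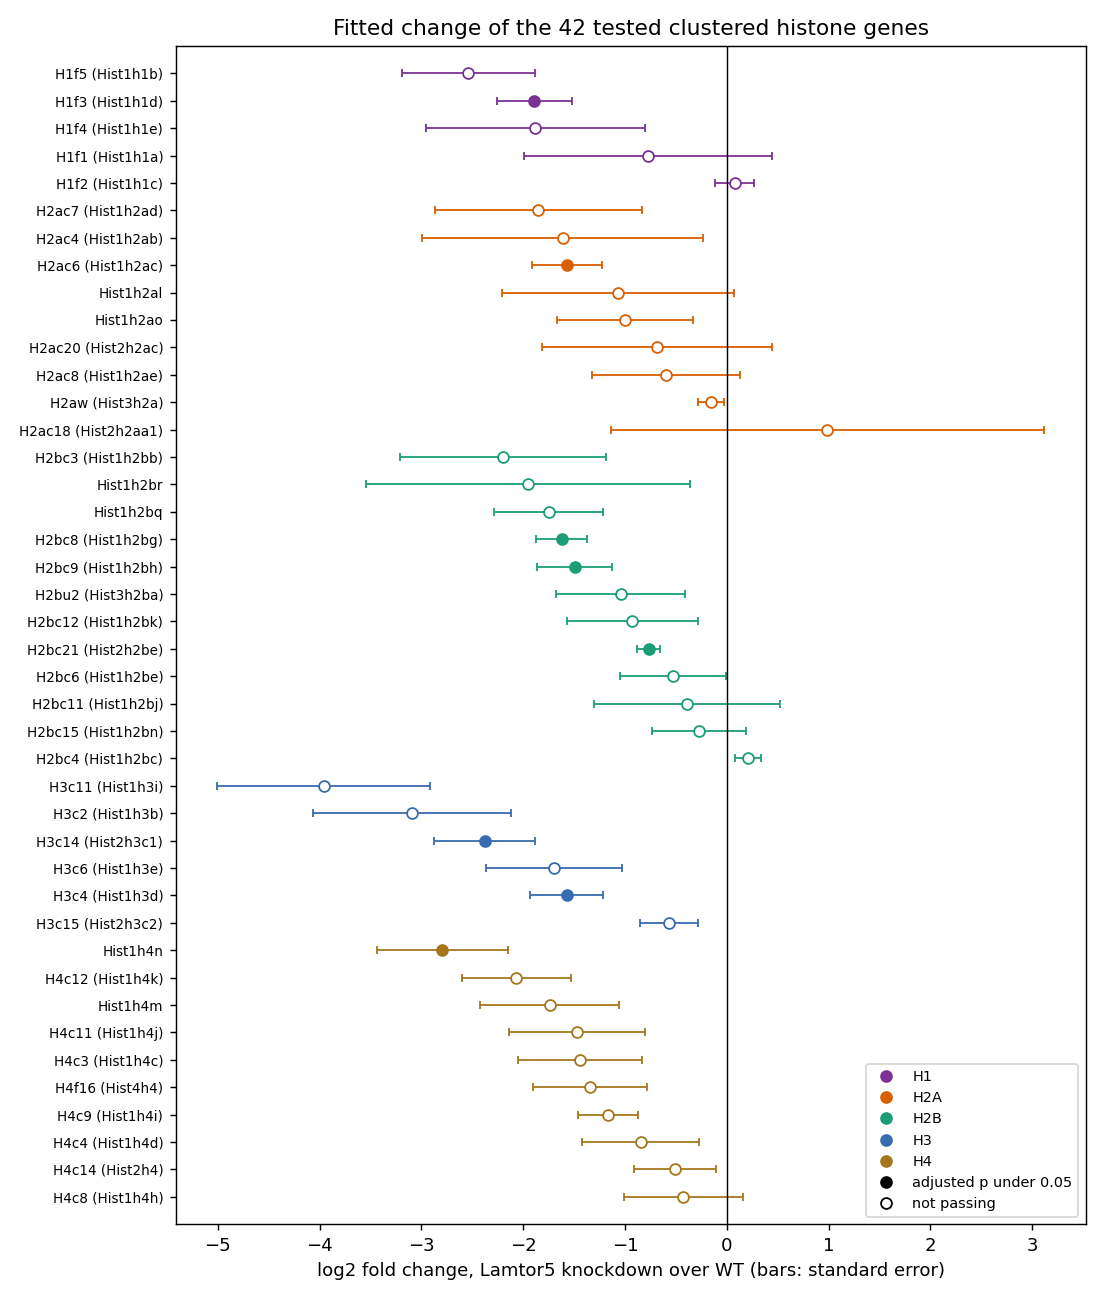
Fitted log2 fold change, knockdown over WT, of the 42 tested clustered histone genes, grouped by histone type, with standard errors from edgeR. Filled points are the 8 genes with an adjusted p under 0.05; 39 of the 42 points lie left of 0, and H2ac18, H2bc4 and H1f2 lie right of it.

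Among the H1 linker histones 1 of 5 tested fell (20.0%, against 6.46% of all genes tested). The most abundant H1 gene, H1f2, did not pass. H1f3 (Hist1h1d, chr13:23553262-23560686, plus strand, 1 exon), which encodes a somatic H1 linker histone, had 1.01, 0.404 and 0.731 FPKM in knockdown libraries, against 3.56, 2.35 and 2.38 FPKM in WT libraries. All 3 knockdown libraries lay under the lowest WT library. H1f3 fell by 1.89 on the log2 scale (SE 0.37, edgeR adjusted p = 0.0257). H1f5 (Hist1h1b) had 0.442, 0.366 and 0.0567 FPKM in knockdown and 1.5, 1.58 and 2.3 FPKM in WT libraries, with a log2 fold change of -2.54 ± 0.66 that missed the threshold (adjusted p = 0.0531). H1f4 (Hist1h1e) was at 0.059 ± 0.067 FPKM in knockdown and 0.223 ± 0.069 FPKM in WT libraries (adjusted p = 0.293), and its gene overlaps H2bc6 on the same strand.

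H1f2 (Hist1h1c, chr13:23738808-23740367, plus strand) was the most abundant clustered histone transcript in every library. It had 115, 99.3 and 103 FPKM in knockdown libraries and 133, 93.5 and 84.1 FPKM in WT libraries, and the groups overlapped. Its log2 fold change was 0.08 ± 0.19 (adjusted p = 0.820). With H1f2 the summed H1 level was 107.0 ± 8.29 FPKM in knockdown and 108.6 ± 26.3 FPKM in WT libraries. Without it the other 5 H1 genes summed to 1.18 ± 0.384 FPKM in knockdown and 5.05 ± 0.377 FPKM in WT libraries, or 23.4% of WT (SD, n = 3 each; sums carry no test). The testis H1 gene H1f6 (Hist1h1t), outside the tested set, had counts of 0, 0 and 0 in knockdown and 4, 12 and 4 in WT libraries.

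Among H2A genes, which encode the core histone that pairs with H2B, 1 of 9 tested fell. This 11.1% is a single gene, against 6.46% of all genes tested. H2ac6 (Hist1h2ac, chr13:23681467-23683948, minus strand, 1 exon) had 0.176, 0.174 and 0.118 FPKM in knockdown libraries and 0.582, 0.360 and 0.508 FPKM in WT libraries. The groups did not overlap, at low levels of 27 to 41 estimated counts in knockdown and 84 to 135 in WT libraries. H2ac6 fell by 1.57 on the log2 scale (SE 0.34, edgeR adjusted p = 0.0334). It overlaps the small predicted gene Gm24991 on its own strand and Gm44350 on the other.

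The most abundant H2A transcript was H2aw (Hist3h2a), a member of the small Hist3 cluster on chromosome 11. It had 8.19, 8.95 and 9.48 FPKM in knockdown and 11.6, 9.49 and 9.57 FPKM in WT libraries, lower by a narrow gap. Its log2 fold change was -0.16 ± 0.13 (adjusted p = 0.463), and it overlaps Trim17 on the same strand. Hist1h2al, which lies far from the other Hist1 genes on chromosome 13, had 0, 3.69 and 3.58 FPKM in knockdown and 6.85, 4.78 and 3.92 FPKM in WT libraries, and knockdown replicate 1 alone was at 0 (adjusted p = 0.581). H2ac20 and H2ac21, both of the Hist2 cluster on chromosome 3, averaged 0.203 and 0.106 FPKM in knockdown and 0.349 and 0.084 FPKM in WT libraries. H2ac10 (Hist1h2af), named after its values were seen and outside the tested set, was at 0 in all 3 knockdown libraries and had counts of 1, 27 and 20 in WT libraries.

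H2B genes gave 3 of the 8 calls. H2bc8 (Hist1h2bg, chr13:23571396-23572013, plus strand, 1 exon) had 2.99, 3.16 and 4.0 FPKM in knockdown and 13.8, 9.04 and 9.47 FPKM in WT libraries. It fell by 1.62 on the log2 scale (SE 0.25, edgeR adjusted p = 0.0153), with every knockdown library under every WT library. H2bc9 (Hist1h2bh, chr13:23541714-23543392, minus strand) had 0.164, 0.354 and 0.187 FPKM in knockdown and 0.656, 0.806 and 0.613 FPKM in WT libraries. It fell by 1.5 on the log2 scale (SE 0.37, adjusted p = 0.0473), again without overlap. H2bc21 (Hist2h2be, chr3:96221119-96223738, plus strand), whose human counterpart is known to be made as polyadenylated mRNA in differentiated cells, had 3.05, 2.95 and 2.64 FPKM in knockdown and 5.21, 5.07 and 4.96 FPKM in WT libraries. The groups were apart, and H2bc21 fell by 0.77 (SE 0.12, adjusted p = 0.0153). The list of polyadenylated clustered histones, drawn from background knowledge, also holds H1f2, H2bc4 and H2bc6. All 4 were tested, and only H2bc21 passed. H1f2 and H2bc4 stood at 0.08 and 0.21, and H2bc21 and H2bc6 were below 0. The median log2 fold change of the 4 was -0.22, against -1.39 for all tested members. The trait therefore did not go with a fall across this list.

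H2bc4 (Hist1h2bc), the most abundant H2B transcript, had 24.8, 24.5 and 23.3 FPKM in knockdown and 25, 20.3 and 19.6 FPKM in WT libraries. The groups overlapped, and its log2 fold change was 0.21 ± 0.13 (adjusted p = 0.327). Without H2bc4 the other 16 H2B genes summed to 9.16 ± 0.596 FPKM in knockdown and 22.9 ± 4.2 FPKM in WT libraries, 40.0% of WT. Hist1h2bq had 1.20, 0.734 and 0.384 FPKM in knockdown and 4.42, 1.67 and 2.01 FPKM in WT libraries (log2 fold change -1.75 ± 0.54, adjusted p = 0.0818). Its transcripts share 92.8% of their read-length stretches of 141 bases with other genes, Hist1h2br among them. Summed over this pair, which the authors' counting could split, the counts were 243, 127 and 78 in knockdown and 876, 313 and 441 in WT libraries. H2bu2, the H2B gene of the Hist3 cluster, averaged 0.194 ± 0.065 FPKM in knockdown and 0.422 ± 0.222 FPKM in WT libraries (adjusted p = 0.320).

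**Figure D2:**
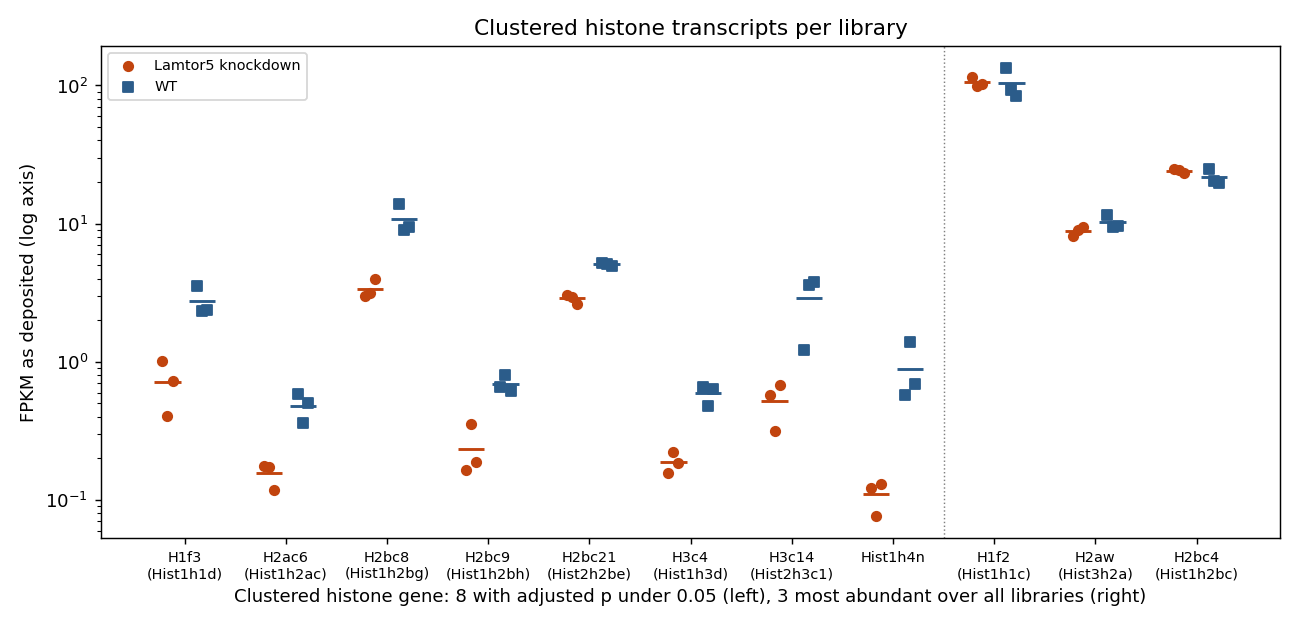
Deposited FPKM of 11 clustered histone genes in each library on a log axis, knockdown (circles) left of WT (squares), with a line at each group mean. The 8 genes left of the dotted line had an adjusted p under 0.05 and no overlap between groups; H1f2, H2aw and H2bc4 on the right are the most abundant members over all 6 libraries and did not pass.

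All 11 H3 genes were below 0 with no count filter, against 47.4% of all genes. Of 6 tested 2 fell (33.3%, against 6.46% of all genes tested). H3c4 (Hist1h3d, chr13:23575763-23577011, plus strand) had 0.158, 0.223 and 0.185 FPKM in knockdown and 0.653, 0.482 and 0.641 FPKM in WT libraries. It fell by 1.58 on the log2 scale (SE 0.36, edgeR adjusted p = 0.0394), with no overlap. H3c14 (Hist2h3c1, chr3:96246685-96248509, plus strand) had 0.572, 0.314 and 0.681 FPKM in knockdown and 1.23, 3.62 and 3.79 FPKM in WT libraries, and fell by 2.38 (SE 0.50, adjusted p = 0.0306). Every 141-base stretch of H3c14 is shared with another gene, and it overlaps Gm20634 on its own strand, as does the H2A gene H2ac18 (Hist2h2aa1).

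Those overlapping genes varied widely between libraries. H2ac18 had counts of 542, 316 and 1 in knockdown and 456, 0 and 0 in WT libraries, and Gm20634 had 196, 46 and 1099 in knockdown and 417, 0 and 0 in WT libraries. Summed over H3c14, H2ac18 and Gm20634 the counts were 835, 412 and 1212 in knockdown and 1083, 615 and 644 in WT libraries, a ratio of group means of 1.05, so the sum did not separate the groups. The fold change of H3c14 is therefore uncertain. H3c15 (Hist2h3c2), with 59.8% of its stretches shared, averaged 1.13 ± 0.212 FPKM in knockdown and 1.73 ± 0.414 FPKM in WT libraries (adjusted p = 0.239). H3c6 (Hist1h3e) averaged 0.164 ± 0.1 FPKM in knockdown and 0.582 ± 0.229 FPKM in WT libraries (adjusted p = 0.144). The 11 H3 genes together summed to 2.31, 2.41 and 2.25 FPKM in knockdown and 6.35, 9.83 and 8.20 FPKM in WT libraries, 28.6% of WT. Without H3c14 the share was 34.3%.

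All 13 H4 genes were below 0 as well, and 1 of 10 tested fell. Hist1h4n (chr13:21831767-21832196, minus strand), which the table lists under its Hist symbol, had 0.122, 0.0767 and 0.132 FPKM in knockdown and 0.572, 1.4 and 0.687 FPKM in WT libraries. That is 3 to 6 estimated counts in knockdown and 23 to 57 in WT libraries. Hist1h4n fell by 2.79 on the log2 scale (SE 0.64, edgeR adjusted p = 0.0391), but it passed the count filter through the WT libraries alone, and with no count filter the adjusted p was 0.0513. It is the only one of the 8 kept in that way. It shares 77.9% of its stretches with Hist1h4m and H4c9, and the counts of Hist1h4m and Hist1h4n together were 48, 12 and 23 in knockdown and 159, 114 and 83 in WT libraries, 23.3% of the WT counts.

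H4c9 (Hist1h4i) was the most abundant H4 transcript, with 4.95, 4.55 and 2.38 FPKM in knockdown and 10.6, 8.45 and 8.49 FPKM in WT libraries. The groups did not overlap, and its log2 fold change of -1.17 ± 0.30 lay just outside the threshold (adjusted p = 0.0502). Just outside as well, and named after its values were seen, was H4c12 (Hist1h4k), at -2.07 ± 0.53 (adjusted p = 0.0531). Hist1h4m stood at -1.74 ± 0.68 (adjusted p = 0.141). H4f16 (Hist4h4), the only gene of the Hist4 cluster on chromosome 6, had 0.380, 0.123 and 0.323 FPKM in knockdown and 1.20, 0.537 and 0.452 FPKM in WT libraries (adjusted p = 0.160). H4c14 (Hist2h4) averaged 0.241 ± 0.091 FPKM in knockdown and 0.356 ± 0.020 FPKM in WT libraries (adjusted p = 0.449). All 13 H4 genes summed to 9.38, 8.05 and 5.30 FPKM in knockdown and 22.3, 19.0 and 16.8 FPKM in WT libraries, 39.2% of WT. The 18 tested members that the naming rule left out, across the 5 types, had log2 fold changes of -3.96 to -0.27, and none passed (smallest adjusted p = 0.0531); 10 of these 18 passed the count filter through the WT libraries alone, which favours values below 0. The 17 members under the count filter had at most 16 estimated counts in a knockdown library and 44 in a WT library. Of these 17, 15 were below 0 with no count filter. The 15 include H1f6 and H2ac10, which were at 0 in every knockdown library.

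The abundant genes made up more of the clustered histone RNA in the knockdown libraries. H1f2, H2bc4 and H2aw held 85.4, 86.6 and 88.4% of the members' counts in knockdown libraries and 73.1, 72.0 and 70.1% in WT libraries. Their summed level was 138.9 ± 7.88 FPKM in knockdown and 135.4 ± 30.1 FPKM in WT libraries. The other 56 genes summed to 34.0, 31.9 and 22.5 FPKM in knockdown and 79.3, 61.6 and 59.1 FPKM in WT libraries, 44.2% of WT, and the groups were apart. These 3 genes were set aside after their values were seen. H2A was the exception among the types: without H2aw its 11 genes summed to 10.9, 11.5 and 5.2 FPKM in knockdown and 17.6, 8.27 and 7.94 FPKM in WT libraries, and the groups overlapped.

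**Figure D3:**
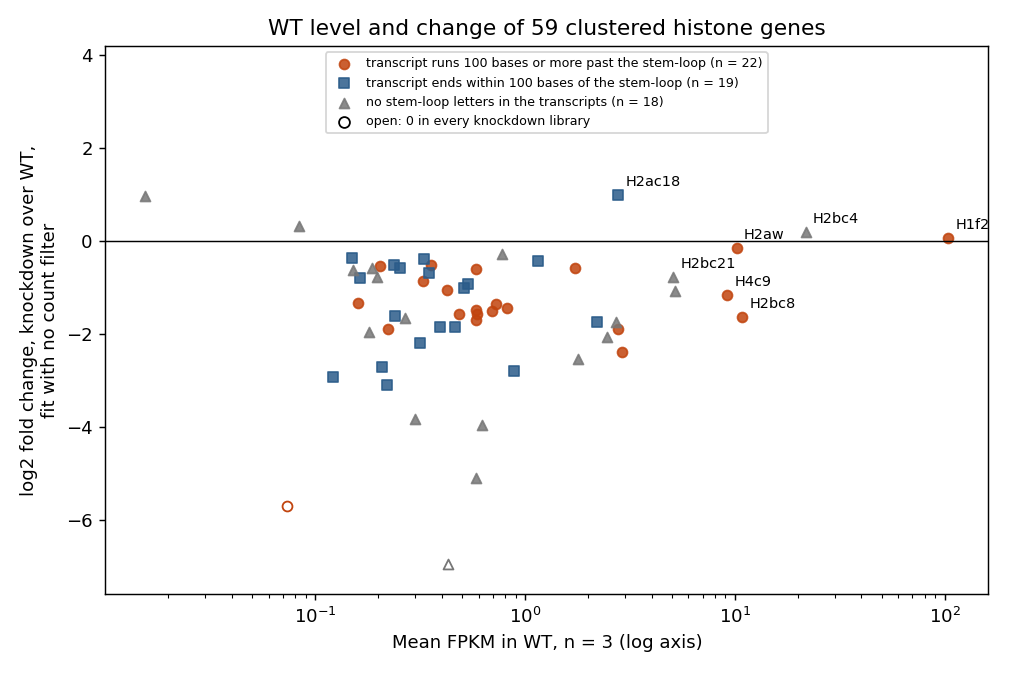
Mean FPKM in WT libraries (log axis) against the log2 fold change, knockdown over WT, of all 59 members in the fit with no count filter, marked by where their transcripts end relative to the stem-loop. H1f2, H2bc4 and H2aw, the most abundant over all 6 libraries, lie between -0.16 and 0.21; open points are the 2 genes at 0 in every knockdown library, whose fitted change depends on the prior count.

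The median change of members lay below 0 whether or not their annotated transcripts end at the stem-loop. The transcripts of 22 members, H1f2 and H2aw among them, run at least 100 bases past it. In that group 6 of 20 tested fell, and the median log2 fold change with no count filter was -1.4. For 19 members whose transcripts end within 100 bases of the stem-loop, 1 of 12 tested fell and the median was -1.0. For 18 with no stem-loop letters in their transcripts, H2bc4 and H2bc21 among them, 1 of 10 fell and the median was -1.36. Some of these have short annotated transcripts, such as H4c12 with 312 bases and H2bc15 with 381. Their annotation may stop before the stem-loop, so the class does not show that these mRNAs lack it. Members with at most 25% of their stretches shared with other genes had 5 calls among 21 tested and a median of -1.17, and the more shared ones had 3 of 21 and -1.62. Genes spanning over 1000 bases had 6 calls among 17 tested and a median of -1.33, and shorter ones 2 of 25 and -1.46. Of all genes tested 6.46% fell, and the 8.33% of members ending near the stem-loop and the 8.0% of shorter genes are near that share. The count filter kept 17 of the 25 shorter genes through the WT libraries alone, against 1 of the 17 longer ones. It kept 8 of the 12 ending near the stem-loop in that way, and 6 of the 20 that run past it.

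Many members lie back to back with another. Among the members there were 14 divergent pairs, whose starts lie under 1000 bases apart and point away from each other, and 13 of the 14 pair an H2A with an H2B gene. With no count filter 54 of 59 members were below 0, so both genes below 0 is the common case for any pair. In 7 pairs both genes could be fitted, and in 6 of these both were below 0. The exception was H2ac6 and H2bc4, whose starts lie 251 bases apart across the H2ac6 promoter printed above: their log2 fold changes were -1.57 and 0.21. The pair H2bc7 and H2ac7, with starts 185 bases apart, stood at -1.84 and -1.85. Both values rest on few estimated counts. H2bc7 had 2, 5 and 6 in knockdown and 3, 19 and 30 in WT libraries. H2ac7 had 16, 2 and 1 in knockdown and 15, 25 and 35 in WT libraries. The groups overlapped for both genes. The pair H2ac8 and H2bc8 stood at -0.60 and -1.63 with no count filter. Differences within pairs were not tested.

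Outside the clusters lie the replacement and variant histone genes, many of which are spliced, polyadenylated and made throughout the cell cycle. Of 11 tested, 7 fell (63.6%, against 6.46% of all genes tested) and none rose in edgeR, at an unadjusted p under 0.05 or by DESeq2, with a median log2 fold change of -0.45. Cenpa, the centromere H3, had 1.03, 1.53 and 1.06 FPKM in knockdown and 4.32, 7.0 and 7.27 FPKM in WT libraries, and fell by 2.31 (SE 0.23, adjusted p = 0.00963). H2az1, the main H2A.Z gene, had 58.0, 84.1 and 62.5 FPKM in knockdown and 137, 128 and 162 FPKM in WT libraries, and fell by 1.02 (SE 0.15, adjusted p = 0.0137). H2ax, the H2A that is phosphorylated at DNA breaks, fell by 1.31 (SE 0.23, adjusted p = 0.0196). H2az2, H1f10, Macroh2a1 and H3f3b fell by 0.84, 1.89, 0.45 and 0.41. H3f3a, the other H3.3 gene, averaged 90.2 ± 26 FPKM in knockdown and 93.5 ± 15.1 FPKM in WT libraries (adjusted p = 0.982). The 7 became 1, 4 or 2 without knockdown replicate 1, 2 or 3, and 7, 0 or 3 without WT replicate 1, 2 or 3.

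Other genes transcribe and process histone mRNA. Of 16 tested, 1 fell (6.25%, near the 6.46% of all genes tested) and none rose in edgeR, at an unadjusted p under 0.05 or by DESeq2, and the median log2 fold change was -0.27. The gene that fell was Srrt (ARS2), a partner of the nuclear cap-binding complex, with 12.5, 13.2 and 12.8 FPKM in knockdown and 15.4, 20.3 and 19.8 FPKM in WT libraries, a fall of 0.47 (SE 0.10, adjusted p = 0.0348). Npat and Slbp are named for their roles. Npat, the coactivator of histone gene transcription, had 3.72, 3.55 and 3.81 FPKM in knockdown and 3.30, 3.77 and 4.17 FPKM in WT libraries (adjusted p = 0.873). Slbp, which binds the stem-loop, had 3.03, 3.35 and 2.53 FPKM in knockdown and 3.06, 4.44 and 5.98 FPKM in WT libraries, overlapping, with a log2 fold change of -0.54 ± 0.23 (adjusted p = 0.171). Srrt lost its call with any 1 library left out other than WT replicate 1, without which 5 of the 16 fell.

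Of 20 histone chaperone and acetyltransferase genes tested, 4 fell (20.0%, against 6.46% of all genes tested) and none rose in edgeR or by DESeq2; Ipo4 was higher at an unadjusted p under 0.05 (log2 fold change 0.26, adjusted p = 0.0845). Asf1b, the replication-linked H3-H4 chaperone, had 3.30, 5.65 and 2.99 FPKM in knockdown and 12.0, 24.0 and 33.2 FPKM in WT libraries, and fell by 2.49 (SE 0.40, adjusted p = 0.0165). Its paralog Asf1a did not pass, with a log2 fold change of 0.20 ± 0.19 (adjusted p = 0.529). Chaf1a, the large subunit of the CAF-1 assembly factor, fell by 1.87 (adjusted p = 0.0464), Tonsl, a reader of new histone H4, by 1.47 (adjusted p = 0.0295), and Hjurp, the chaperone of Cenpa, by 1.67 (adjusted p = 0.0194). The 28 S phase genes tested, a list that also holds Slbp, had 16 that fell (57.1%) and none that rose in edgeR, at an unadjusted p under 0.05 or by DESeq2, with a median of -1.59. Rrm2, a ribonucleotide reductase subunit, fell by 2.98 (SE 0.56, adjusted p = 0.0229) and Tk1, thymidine kinase, by 2.54 (SE 0.43, adjusted p = 0.0194). Pcna, the sliding clamp, had 42.9, 55.4 and 39.4 FPKM in knockdown and 57.7, 101 and 135 FPKM in WT libraries (adjusted p = 0.0611). The 16 S phase genes became 0, 3 or 0 without knockdown replicate 1, 2 or 3, and 27, 0 or 0 without WT replicate 1, 2 or 3; the 4 chaperones became 0, 2 or 0, and 11, 0 or 2.

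The order of the WT libraries was not the same for clustered histones and S phase genes. S phase genes summed to 137, 177 and 117 FPKM in knockdown and 198, 418 and 580 FPKM in WT libraries, and WT replicate 3 was the highest WT library for 28 of 28. For the clustered histones, WT replicate 1 was highest for 24 of 59 genes, replicate 2 for 19 and replicate 3 for 16. These 59 genes had a median of 0.483 FPKM in WT libraries, so the highest library of a single gene is uncertain. WT replicate 1, with the lowest S phase sum of the WT libraries, had the highest summed H1, H2A, H2B and H4 of the WT libraries, and the lowest summed H3. In both sets every knockdown library lay under every WT library, once H1f2, H2bc4 and H2aw were set aside from the histones.

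**Figure D4:**
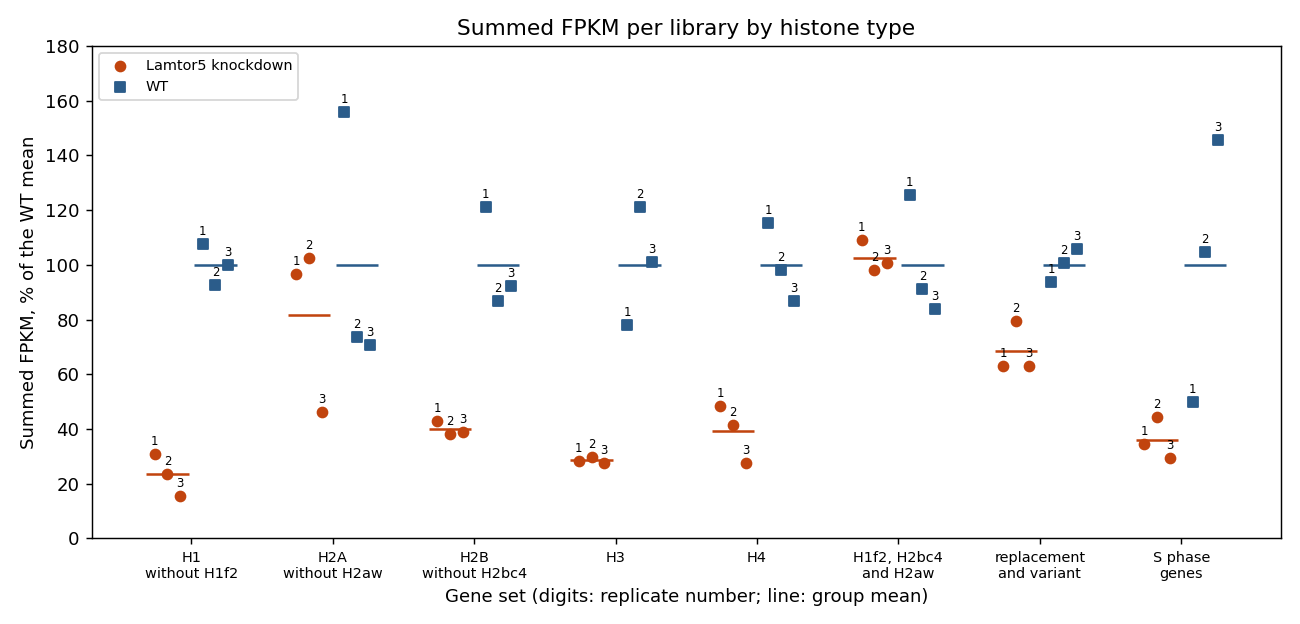
Summed deposited FPKM per library as a percentage of the WT mean, knockdown (circles) left of WT (squares), with replicate numbers and group means. Knockdown and WT libraries are apart for H1 without H1f2, H2B without H2bc4, H3, H4, the replacement and variant histones and the S phase genes. They overlap for the 3 abundant genes and for H2A without H2aw, a sum that holds the widely varying H2ac18. WT replicate 3 is the highest WT library for S phase genes and not for the 5 histone types shown.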

How the data were processed

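Libraries from 3 Lamtor5 knockdown and 3 WT macrophage samples were grouped by the genotype label. The authors deposited a table of estimated counts and FPKM for each gene and library, per the file headers; per the file headers in the trimming logs, adapters were cut with cutadapt 1.9 (minimum read length 100 bases), and per the submitters' processing notes the genome was GRCm38 (mm10). How reads were aligned and counted, how reads shared between genes were treated and whether strand was used is not stated. The deposited estimated counts are whole numbers but sum to 2.95 to 3.01 per read pair, and 16.4% of values from 1 to 30 are exactly 4, so no counting interval was made. All 69 clustered histone genes had the same coordinates in the table and in GENCODE M21.

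Tests ran in edgeR 4.0.16 (R 4.3.3) over the genes kept by filterByExpr (minimum count 10), with TMM scaling and group as the only term; the standard error is the size of the log2 fold change divided by the square root of F. Alternatives used RLE scaling, DESeq2 1.42.0, no count filter, limma 3.58.1 on log2(FPKM + 1) or log2(FPKM + 0.1), counts divided by 4, a block for the replicate number, and fits without each single library. The fits were tested on simulated data. Shared stretches are the 141-base windows of a gene's M21 transcripts that also occur in another gene's; a planned comparison of protein sequences was not made. Named members are those that passed, the 4 with the most counts per type, and those of the Hist2, Hist3 and Hist4 clusters; from the other lists, up to 4 genes with the smallest p and up to 4 with the most counts could be named. The members and lists were chosen with earlier results of these data known.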

Additional observations from a re-analysis of the deposited data

How the results depend on the processing

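No result changed sign under any setting in which it passed. DESeq2 and the replicate block moved the number of genes that pass to 3579 (1986 lower, 1593 higher) and 728 (424 lower, 304 higher). Members lower were 15 with DESeq2, 3 with no count filter and 3 with the block. S phase genes lower were 3 with no count filter, 6 and 8 with limma on log2(FPKM + 1) and log2(FPKM + 0.1), 2 with limma and no FPKM filter, and 2 with the block; variant histones lower were 3 with the block. Chaperones lower were 9, 2, 2 and 1 with DESeq2, no count filter, limma with no FPKM filter and the block, and processing genes lower were 2, 0, 0 and 0. The replicate numbers did not pair the libraries: same-numbered libraries correlated at 0.05, 0.03 and -0.02. With a library left out, the genes that pass ranged from 0 to 2334 (lower 0 to 1389, higher 0 to 945), members lower from 0 to 5, S phase genes from 0 to 27, variant histones from 0 to 7, chaperones from 0 to 11 and processing genes from 0 to 5. The ratio of summed FPKM over all members, knockdown over WT, was 0.985 for H1, 0.843 for H2A, 0.749 for H2B, 0.286 for H3 and 0.392 for H4. With a library left out this ratio ranged from 0.904 to 1.14 for H1, 0.772 to 1.03 for H2A, 0.714 to 0.825 for H2B, 0.258 to 0.319 for H3 and 0.345 to 0.451 for H4. Without the most abundant member it was 0.234 for H1, 0.818 for H2A, 0.4 for H2B, 0.343 for H3 and 0.356 for H4. In summed CPM over all members it was 0.779 for H2B and 0.297 for H3. Most members stood at low levels, with a median of 0.172 FPKM in knockdown and 0.483 FPKM in WT libraries. The cause of these shifts was not tested.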
